A study of Mus musculus with 12 samples.

Results

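Neurexins, neuroligins and the leucine-rich repeat transmembrane proteins (LRRTMs) are adhesion proteins that meet across the synaptic cleft. Among the 46603 genes counted in this series, 9 were taken here by gene symbol. These are the neurexins Nrxn2 and Nrxn3, the neuroligins Nlgn1, Nlgn2 and Nlgn3, and Lrrtm1, Lrrtm2, Lrrtm3 and Lrrtm4. RNA was sequenced from microdissected neocortex of C57Bl/6J mice that were Chd8+/+ or Chd8+/-, from both hemispheres at embryonic day 12.5 (E12.5) and from 1 hemisphere at postnatal day 5 (P5). Each genotype had 3 libraries per stage, 12 in all, and each library had between 38774591 and 54695236 counts on genes. Chd8 encodes a chromatin remodeler, and Chd8+/- mice carry 1 null allele in which exon 3, flanked by loxP sites, was deleted with β-actinCre, a Cre driver active in all tissues. The Cre transgene was then bred out, the line came from targeted embryonic stem cell clones, and all groups were on the same C57Bl/6J background. In these bulk samples, fewer cells of a type and less RNA per cell cannot be told apart.

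Neurexins sit in the presynaptic membrane, where each gene gives long α forms and short β forms from separate promoters and many splice forms. Neuroligins and LRRTMs are their postsynaptic ligands. Neuroligin-1 is concentrated at excitatory synapses and neuroligin-2 at inhibitory synapses, while neuroligin-3 is found at both. LRRTMs are best known at excitatory synapses, where LRRTM1 and LRRTM2 bind neurexins and help to hold AMPA receptors, and LRRTM4 also binds heparan sulfate proteoglycans. The counts are per gene, so that transcript forms of a gene are pooled in every value below.

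The genes differ widely in size. On GRCm38, Nrxn3 spans 1612060 bases on the plus strand at chr12:88722876-90334935, and Nrxn2 spans 125439 bases at chr19:6418731-6544169, also on the plus strand. Nlgn1 lies at chr3:25426215-26332460 on the minus strand, whereas Nlgn2 takes up only 14663 bases at chr11:69823122-69837784 on the minus strand. Nlgn3 is X-linked, at chrX:101299168-101325963 on the plus strand. Lrrtm1 (chr6:77242689-77257791, plus strand), Lrrtm3 (chr10:63928472-64090277, minus strand) and Lrrtm2, which spans 6014 bases, each lie within a gene on the opposite strand, Ctnna2, Ctnna3 and Ctnna1 respectively, with 0 exon bases shared. Lrrtm4 lies at chr6:80018877-80810143 on the plus strand. Of the 9 genes, Nlgn2, Lrrtm1, Lrrtm2 and Lrrtm3 shared no exon bases with another gene. Nlgn3 shared 3823 of its 9271 exon bases with Gm21986 on the same strand, so that read pairs confined to that stretch may be missing from its count. The strand was not used in the recorded P5 counting. Nrxn2, Nrxn3, Nlgn1 and Lrrtm4 share between 439 exon bases (Nrxn3) and 1543 exon bases (Lrrtm4) with genes on the opposite strand. Reads in these stretches cannot be told apart from those of the other gene, so that they too may be missing from the counts. Without the strand, reads of unspliced host transcripts over exons of Lrrtm1, Lrrtm2 or Lrrtm3 could be counted for these genes.

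RefSeq start windows of GRCm38.p6, which run from 250 bases before to 50 bases after an annotated start, are shown for 3 genes because their levels set the range of the family: Nlgn2 had the highest level at both stages, Lrrtm4 the lowest, and Nrxn3 has starts far apart within 1 gene. Capitals mark CG dinucleotides. The Nrxn3 windows are the upstream one at chr12:88794254-88794553 and the downstream one at chr12:89812233-89812532, the Nlgn2 window, on the minus strand, is at chr11:69837735-69838034 and the upstream of 2 Lrrtm4 windows at chr6:80018627-80018926.
Nrxn3 upstream start: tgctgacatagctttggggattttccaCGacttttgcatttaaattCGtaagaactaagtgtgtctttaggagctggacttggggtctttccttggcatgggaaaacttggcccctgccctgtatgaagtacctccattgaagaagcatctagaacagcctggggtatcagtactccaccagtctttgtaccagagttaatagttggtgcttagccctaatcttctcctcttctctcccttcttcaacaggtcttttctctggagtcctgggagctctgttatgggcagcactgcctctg
Nrxn3 downstream start: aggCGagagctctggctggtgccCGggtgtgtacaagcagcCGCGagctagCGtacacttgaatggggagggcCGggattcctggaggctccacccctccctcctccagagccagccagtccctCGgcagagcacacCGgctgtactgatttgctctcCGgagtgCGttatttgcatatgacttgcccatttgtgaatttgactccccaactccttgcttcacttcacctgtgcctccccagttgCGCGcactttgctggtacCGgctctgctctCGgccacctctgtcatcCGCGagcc
Nlgn2 start: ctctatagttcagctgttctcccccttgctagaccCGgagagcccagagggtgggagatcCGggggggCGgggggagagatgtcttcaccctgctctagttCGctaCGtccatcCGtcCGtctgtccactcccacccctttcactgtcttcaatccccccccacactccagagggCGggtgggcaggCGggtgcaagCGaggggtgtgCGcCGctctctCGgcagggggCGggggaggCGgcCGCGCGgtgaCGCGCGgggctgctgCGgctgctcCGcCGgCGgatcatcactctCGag
Lrrtm4 upstream start: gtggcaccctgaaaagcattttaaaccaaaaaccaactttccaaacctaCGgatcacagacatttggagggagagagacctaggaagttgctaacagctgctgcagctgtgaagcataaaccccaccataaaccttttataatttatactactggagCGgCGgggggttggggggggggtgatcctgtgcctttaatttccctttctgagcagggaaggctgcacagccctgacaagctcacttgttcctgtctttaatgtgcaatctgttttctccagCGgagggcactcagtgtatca
The Nlgn2 window held 26 CG, a number reached by 16.9% of the 32851 mouse windows of this length, whose median was 7. The downstream Nrxn3 window held 16 (reached by 33.0%), the upstream Lrrtm4 window held 4 (reached by 68.6%) and the upstream Nrxn3 window held 2 (reached by 85.9%). The motif CANNTG, which reads the same on both strands, occurred 5 times in the downstream Nrxn3 window, 4 times in the upstream Lrrtm4 window, 1 time in the Nlgn2 window and 0 times in the upstream Nrxn3 window. The windows not shown held 9 CG and 2 CANNTG for the downstream Lrrtm4 start, and 6 CG and 1 CANNTG for a further Nrxn3 start between those shown. At least 1 CANNTG was present in 72.3% of all windows. Counts per gene do not separate reads from the Nrxn3 starts.

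All 9 genes were higher at P5, when synapses are forming, than at E12.5, when progenitors predominate, in both genotypes. Levels between genes are given as counts scaled to a common library total, in CPM, per kilobase of exon (CPM per kb), with TMM scaling over the 12 libraries, and stages were compared with edgeR's quasi-likelihood test in 1 model of 4 groups with Benjamini-Hochberg adjustment. At a threshold of 0.05, 9 of 9 genes rose in Chd8+/+ and 9 of 9 in Chd8+/-, with adjusted p between 5.57e-15 and 1.71e-09 in Chd8+/+ and between 9.14e-15 and 8.58e-10 in Chd8+/-. As background, 41.4% of the 19676 genes tested rose in Chd8+/+ and 41.3% in Chd8+/-. The median log2 fold change was 2.70 over the 9 genes and -0.02 over all genes in Chd8+/+, and 2.37 and -0.0046 in Chd8+/-. The 2 stages were counted in separate tables, and the stage and the counting of its table cannot be told apart.

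**Figure D1:**
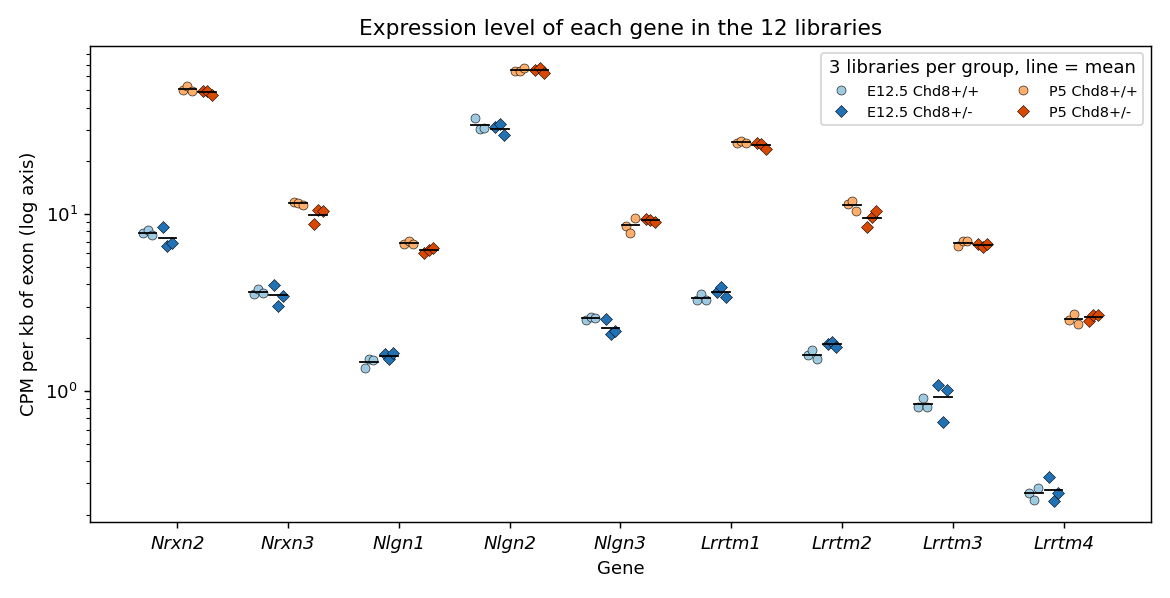
Level of each gene in CPM per kb of exon (log axis) in the 12 libraries, with circles for Chd8+/+, diamonds for Chd8+/- and a line at each group's mean of 3 libraries. For every gene the 6 P5 libraries lie above the 6 E12.5 libraries, with Nlgn2 at the top and Lrrtm4 at the bottom of both stages.

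Of the neurexins, Nrxn2 was at 6.63 to 8.45 CPM per kb in the 6 E12.5 libraries (median 7.72) and at 47.3 to 53.0 in the 6 P5 libraries (median 49.9). Its log2 fold change was 2.70 (SE, the standard error of the fit, 0.0793) in Chd8+/+ and 2.74 (0.0795) in Chd8+/-. Nrxn3 went from 3.04 to 3.98 CPM per kb at E12.5 (median 3.57) to between 8.84 and 11.7 at P5 (median 10.95). Its log2 fold change was 1.67 (SE 0.0829) in Chd8+/+ and 1.51 (0.0832) in Chd8+/-. The libraries of the 2 stages did not overlap for either neurexin.

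The neuroligins started from very different levels. Nlgn2, whose product organizes inhibitory synapses, was already at 28.0 to 35.2 CPM per kb at E12.5 (median 30.8), higher than 90.5% of the genes tested, and reached 62.5 to 67.4 at P5 (median 64.7). Its rise was the smallest of the 9, with a log2 fold change of 1.03 (SE 0.0667) in Chd8+/+ and 1.09 (0.0668) in Chd8+/-, and 26.1% of all genes tested rose at least as much in Chd8+/+. Nlgn1 was at 1.35 to 1.63 CPM per kb at E12.5 (median 1.51) and at 6.03 to 7.01 at P5 (median 6.60). The log2 fold change of Nlgn1 was 2.24 (SE 0.0556) in Chd8+/+ and 1.98 (0.0553) in Chd8+/-. Nlgn3 was at 2.11 to 2.61 CPM per kb at E12.5 (median 2.54) and at 7.83 to 9.53 at P5 (median 9.15). The log2 fold change of Nlgn3 was 1.74 (SE 0.0767) in Chd8+/+ and 2.01 (0.0778) in Chd8+/-.

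Lrrtm4 showed the largest rise of the 9 genes, and each of the other LRRTMs rose more than 5-fold in the fit for both genotypes. Lrrtm4 was barely present at E12.5, at 0.240 to 0.324 CPM per kb (median 0.265), and reached 2.38 to 2.72 at P5 (median 2.60). Its log2 fold change was 3.26 (SE 0.105) in Chd8+/+ and 3.25 (0.106) in Chd8+/-, and 7.47% of all genes tested rose at least as much in Chd8+/+. Lrrtm1 went from 3.27 to 3.85 CPM per kb (median 3.47) to between 23.4 and 25.8 (median 25.2), a log2 fold change of 2.92 (SE 0.0608) in Chd8+/+ and 2.76 (0.0606) in Chd8+/-. Lrrtm2 went from 1.51 to 1.89 CPM per kb (median 1.74) to between 8.51 and 11.8 (median 10.4), with a log2 fold change of 2.81 (SE 0.0811) in Chd8+/+ and 2.37 (0.0802) in Chd8+/-. The E12.5 libraries of Lrrtm3 ranged more widely, from 0.668 to 1.08 CPM per kb (median 0.865), and its P5 libraries lay between 6.55 and 7.07 (median 6.78). The log2 fold change of Lrrtm3 was 3.03 (SE 0.119) in Chd8+/+ and 2.86 (0.119) in Chd8+/-.

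Nlgn2, Nrxn2 and Lrrtm4 kept their place in the order of median levels between the stages. Nrxn3 and Lrrtm1, Nlgn3 and Lrrtm2, and Nlgn1 and Lrrtm3 changed places. From high to low it was Nlgn2, Nrxn2, Nrxn3, Lrrtm1, Nlgn3, Lrrtm2, Nlgn1, Lrrtm3 and Lrrtm4 at E12.5, where Nrxn3 overlapped Lrrtm1 and Lrrtm2 overlapped Nlgn1 across libraries. At P5 it was Nlgn2, Nrxn2, Lrrtm1, Nrxn3, Lrrtm2, Nlgn3, Lrrtm3, Nlgn1 and Lrrtm4. The neighbours Nrxn3 and Lrrtm2, Lrrtm2 and Nlgn3, and Lrrtm3 and Nlgn1 overlapped at P5, and all other neighbours were separate. The place of Nlgn3 may be too low if read pairs in its stretch shared with Gm21986 are missing from its count. Among all genes tested, the level of Lrrtm4 exceeded 18.4% at E12.5 and 44.6% at P5, and that of Nrxn2 exceeded 65.2% and 94.8%.

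Because the genes of a family rose by different amounts, its make-up shifted. Shares of a family's summed CPM per kb were compared between the 6 libraries of each stage with two-sided exact permutation tests, adjusted over 24 tests of stage and genotype. Nlgn2 made up 88.7% ± 0.998 (SD, n = 6) of the neuroligin level at E12.5 and 80.8% ± 0.403 (SD, n = 6) at P5. Nlgn1 grew from 4.35% ± 0.545 to 8.14% ± 0.531 and Nlgn3 from 6.93% ± 0.669 to 11.1% ± 0.651 (SD, n = 6 each). Each of these differences had p = 0.00216 in the exact permutation test, the smallest that 6 against 6 libraries can give, and an adjusted p of 0.00866 in the same exact test. The Nlgn3 level uses its full exon length. If read pairs in its stretch shared with Gm21986 are missing, its share is too low and those of Nlgn1 and Nlgn2 too high. Within the LRRTMs, Lrrtm2 went from 27.0% ± 0.888 to 23.1% ± 2.00 and Lrrtm4 from 4.25% ± 0.491 to 5.78% ± 0.356 (SD, n = 6 each), with the same exact p and adjusted p. Lrrtm1 made up most of the LRRTM level at both stages, 54.9% ± 1.97 at E12.5 and 55.9% ± 1.73 at P5 (SD, n = 6 each), and this difference did not pass the exact permutation test (p = 0.370, adjusted p = 0.533). Lrrtm3 was at 13.9% ± 2.09 and 15.2% ± 0.554 (SD, n = 6 each; exact permutation p = 0.141, adjusted p = 0.338). The log2 ratio of Nrxn3 to Nrxn2 per kb fell from -1.09 ± 0.050 to -2.22 ± 0.142 (SD, n = 6 each), with an exact permutation p of 0.00216 and an adjusted p of 0.00866.

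**Figure D2:**
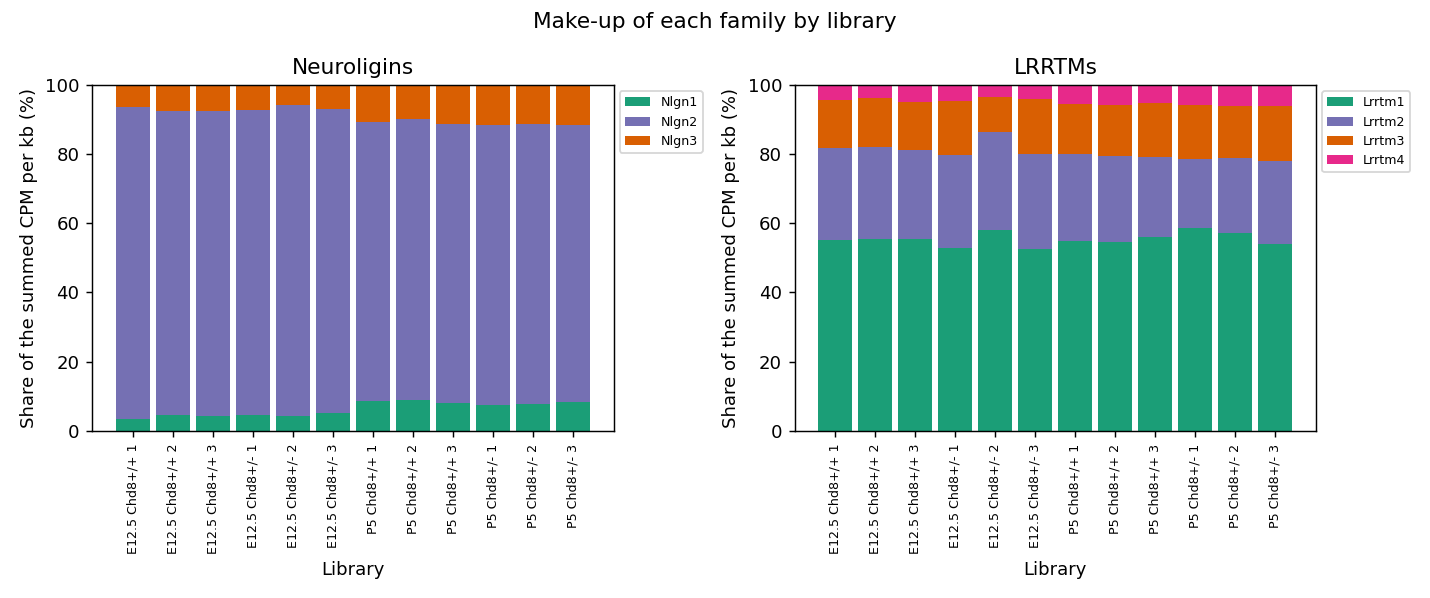
Share (%) of each gene in the summed CPM per kb of the neuroligins (left) and the LRRTMs (right), with 1 stacked bar for each of the 12 libraries. The bars of Nlgn1 and Nlgn3 are thicker in every P5 library than in every E12.5 library, and Lrrtm1 fills at least 52.7% of each LRRTM bar.

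The targeted gene was checked before the genotypes were compared. In CPM scaled within each stage, the Chd8+/+ libraries held Chd8 at 233 to 238 at E12.5 and 143 to 148 at P5, and the Chd8+/- libraries at 164 to 169 and 94.1 to 97.7. The genotypes did not overlap at either stage.

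At E12.5, none of the 9 genes passed the test between Chd8+/- and Chd8+/+ after adjustment. The genotypes were compared within the stage with edgeR's quasi-likelihood test, which called 0 of 9 (lowest adjusted p = 0.942) beside 0.00553% of the 18081 genes tested. Of the 8 genes to which DESeq2's Wald test gave an adjusted p, 0 were called, beside 0.0374% of all genes, and 2 of 9 had an unadjusted edgeR p under 0.05, beside 5.15% of all genes. Lrrtm2, a postsynaptic ligand of neurexins, was at 9.12, 9.88 and 8.67 CPM in the Chd8+/+ libraries and at 10.6, 10.8 and 10.15 CPM in the Chd8+/- libraries. Every Chd8+/- library was thus above every Chd8+/+ library, as for 5.45% of all genes, and the log2 fold change of Lrrtm2 was 0.19 (SE 0.0813, edgeR p 0.0417 before adjustment). Nlgn3 was at 23.7, 24.7 and 24.4 CPM in Chd8+/+ and at 24.05, 19.8 and 20.55 CPM in Chd8+/- libraries, so that replicate 1 of Chd8+/- lay among the Chd8+/+ libraries. The log2 fold change of Nlgn3 was -0.18 (SE 0.0773, edgeR p 0.0474 before adjustment). The other 7 genes had log2 fold changes from -0.10 for Nrxn2 (SE 0.0828) to 0.12 for Nlgn1 (SE 0.0689), with Lrrtm3 at 0.12 (SE 0.179). With each library left out, Nrxn2 ranged from -0.22 to -0.032 and Nlgn1 from 0.067 to 0.16. The comparisons of Lrrtm3 and Lrrtm4 were the least precise of the 9 genes by their SE. Lrrtm4 was low, with libraries between 1.49 and 2.02 CPM (log2 fold change 0.06, SE 0.167).

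Among the E12.5 Chd8+/- libraries, replicate 2 had the lowest values of Nrxn2 (92.7 CPM), Nrxn3 (38.8 CPM), Nlgn3 (19.8 CPM) and Lrrtm3 (2.88 CPM) of all 6 libraries of the stage, and replicate 1 had the highest values of Nrxn2 (118 CPM), Nrxn3 (50.9 CPM) and Lrrtm3 (4.67 CPM). Lrrtm1 (11.8 CPM) and Lrrtm2 (10.8 CPM) were instead highest in that replicate 2. The summed level of 6 markers of cortical excitatory neurons was also lowest in replicate 2, at 462 CPM, and highest in that replicate 1, at 680 CPM, against 556 to 636 CPM in the Chd8+/+ libraries. The sum of the 7 interneuron markers was likewise lowest in replicate 2 (531 CPM) and highest in replicate 1 (652 CPM), against 625.5 to 649 CPM in Chd8+/+. The astrocyte sum (139 CPM) and the oligodendrocyte precursor sum (107 CPM) were highest in replicate 2, against 94.0 to 103.5 CPM and 76.5 to 87.1 CPM in Chd8+/+. The microglia sum was highest there too, at 31.4 CPM against 26.5 to 27.2 CPM in Chd8+/+. The endothelial sum was lower in every Chd8+/- library (98.5 to 107 CPM) than in every Chd8+/+ library (109 to 111 CPM). The part of these cells in the values of these genes was not tested.

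**Figure D3:**
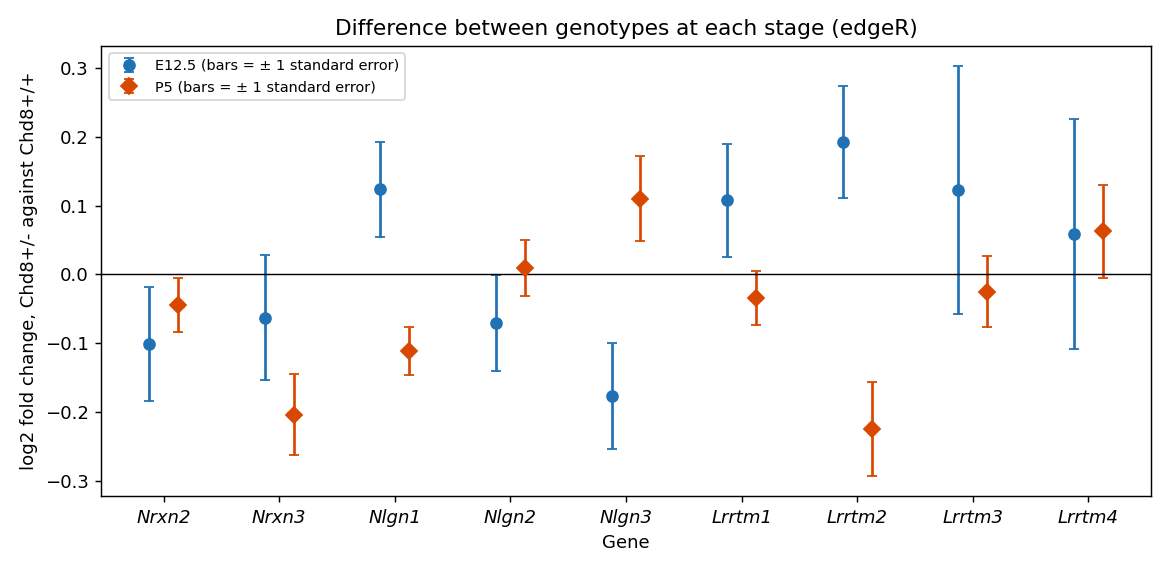
Log2 fold change between Chd8+/- and Chd8+/+ for each gene at E12.5 (circles) and P5 (diamonds), with bars of ± 1 SE from edgeR. The signs at the stages are opposite for 6 of the 9 genes (Nlgn1, Nlgn2, Nlgn3, Lrrtm1, Lrrtm2 and Lrrtm3), and Nrxn3 and Lrrtm2 have the lowest values at P5, -0.20 and -0.22.

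At P5, Nrxn3, Lrrtm2 and Nlgn1 had the lowest values in Chd8+/- relative to Chd8+/+, and whether Nrxn3 and Lrrtm2 passed depended on the tool and on the filter on low counts. edgeR's quasi-likelihood test called 0 of 9 genes (lowest adjusted p = 0.139), beside 0.00536% of the 18666 genes tested, whereas DESeq2's Wald test called Nrxn3 and Lrrtm2 as lower, 2 of 9, beside 3.57% of all genes with a DESeq2 adjusted p. Without its filter, on all genes with at least 1 count, edgeR also called Nrxn3 (adjusted p = 0.0051) and Lrrtm2 (adjusted p = 0.0070), beside 1.97% of all genes called as lower in that fit. Restricted to the genes that edgeR tested, an alternative added after the data were seen, DESeq2 again called Nrxn3 (adjusted p = 0.0202) and Lrrtm2 (adjusted p = 0.0305), beside 3.77% of all genes called as lower. Of the 9, 3 were lower with an unadjusted edgeR p under 0.05, beside 9.77% of all genes. Nrxn3 and Nlgn1 were lower in every Chd8+/- library than in every Chd8+/+ library, 2 of 9, beside 12.2% of all genes.

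Nrxn3, the presynaptic partner, was at 145, 143 and 140.3 CPM in the Chd8+/+ libraries and at 111, 132 and 129 CPM in the Chd8+/- libraries. The genotypes did not overlap, and replicate 1 of Chd8+/- was the lowest. The log2 fold change of Nrxn3 was -0.20 (SE 0.0589), and the adjusted p was 0.139 in edgeR but 0.0198 in DESeq2. Without that replicate it was -0.13, and DESeq2's adjusted p was then 0.126. DESeq2 also lost the call of Nrxn3 without Chd8+/+ replicate 1 (adjusted p = 0.225) or Chd8+/+ replicate 2 (adjusted p = 0.0987), although its log2 fold change there was still -0.19 and -0.20.

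Lrrtm2 was at 63.55, 65.3 and 58.1 CPM in Chd8+/+ and at 47.9, 54.0 and 58.1 CPM in Chd8+/- libraries. The genotypes met at the lowest Chd8+/+ and the highest Chd8+/- library. The log2 fold change of Lrrtm2 was -0.22 (SE 0.0679), and the adjusted p was 0.149 in edgeR but 0.0316 in DESeq2. The DESeq2 call of Lrrtm2 was lost without Chd8+/+ replicate 1 (adjusted p = 0.278), Chd8+/+ replicate 2 (0.196), Chd8+/- replicate 1 (0.270) or Chd8+/- replicate 2 (0.0534). The DESeq2 log2 fold change of Lrrtm2 was then -0.21, -0.19, -0.15 and -0.23 in that order.

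Nlgn1, the neuroligin of excitatory synapses, was at 89.2, 92.0 and 89.0 CPM in Chd8+/+ and at 80.5, 83.8 and 85.9 CPM in Chd8+/- libraries. The genotypes did not overlap, and the difference was small, a log2 fold change of -0.11 (SE 0.0351, edgeR adjusted p 0.157, DESeq2 adjusted p 0.158). Nlgn3 was at 77.6, 71.0 and 86.9 CPM in Chd8+/+ and at 86.2, 85.3 and 82.7 CPM in Chd8+/- libraries. Its Chd8+/+ libraries spanned all the Chd8+/- libraries, and the log2 fold change of Nlgn3 was 0.11 (SE 0.0611, edgeR adjusted p 0.376, DESeq2 adjusted p 0.338). Without Chd8+/+ replicate 3, DESeq2 called Nlgn3 as higher (log2 fold change 0.19, adjusted p = 0.0375), beside 4.62% of all genes called in that fit. Without Chd8+/+ replicate 2, its DESeq2 log2 fold change was 0.043 (adjusted p = 0.784).

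The other 5 genes overlapped between the genotypes at P5. Nrxn2 was at 676 to 716 CPM in Chd8+/+ and 647 to 686 CPM in Chd8+/- libraries (log2 fold change -0.04, SE 0.0392). Nlgn2 was at 363 to 383 CPM and 358 to 385 CPM (log2 fold change 0.0093, SE 0.0410 from edgeR). Lrrtm1, Lrrtm3 and Lrrtm4 had log2 fold changes of -0.03 (SE 0.0385), -0.03 (0.0512) and 0.06 (0.0674). Their adjusted p lay above that of Nlgn3 in edgeR, which does not show that they were equal in the genotypes.

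**Figure D4:**
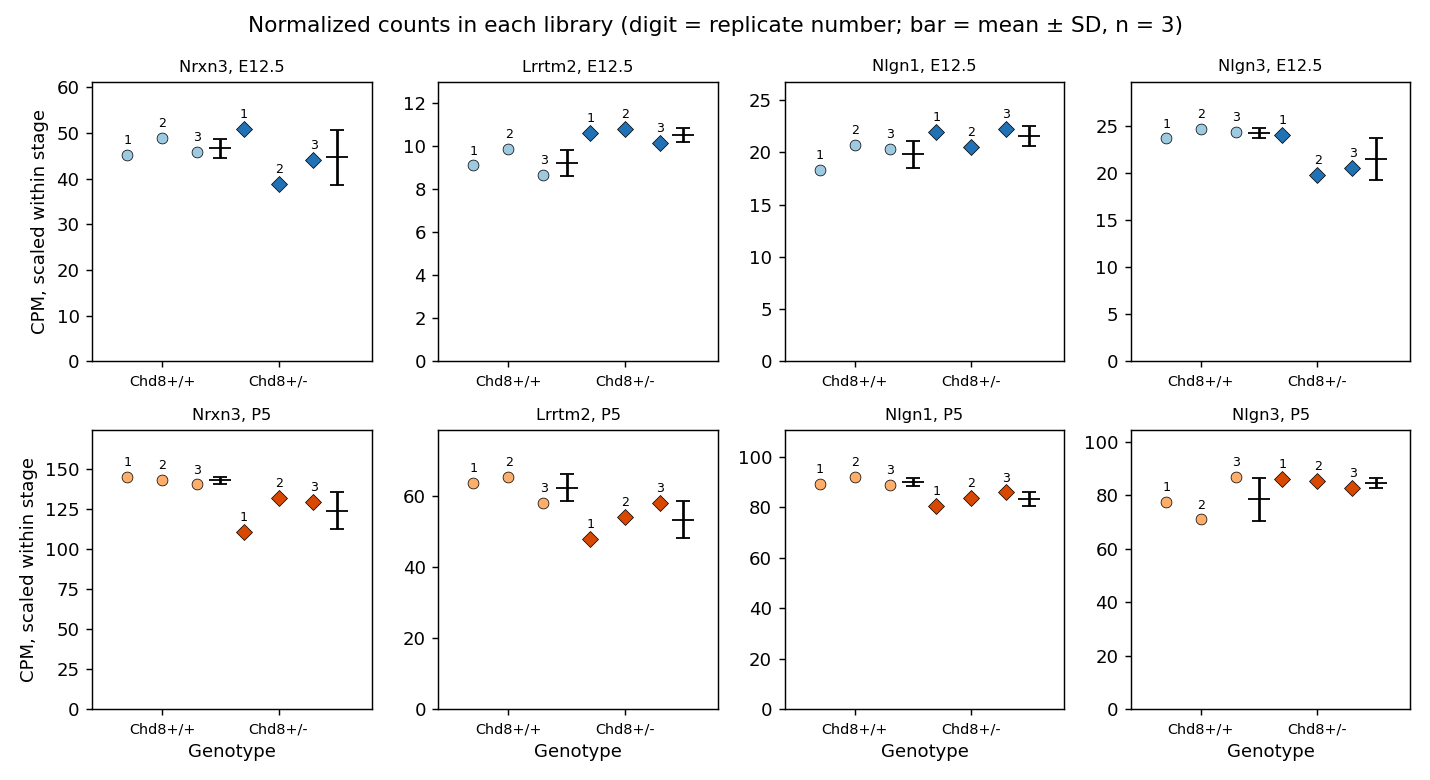
CPM scaled within each stage for Nrxn3, Lrrtm2, Nlgn1 and Nlgn3 at E12.5 (top) and P5 (bottom), with 1 point per library marked by its replicate number and the mean ± SD of 3 libraries beside the points. At P5 the Chd8+/- points of Nrxn3 (111 to 132 CPM) lie below all Chd8+/+ points (140.3 to 145 CPM), whereas those of Lrrtm2 meet the Chd8+/+ points at 58.1 CPM.

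Exon length and markers of other cell types moved with the genotype at P5. Genes with over 10000 exon bases, as Nrxn2, Nrxn3 and Nlgn1 have, had a median log2 fold change of -0.07, and genes with under 2000 exon bases one of 0.06. With an offset for each library's trend with exon length, the log2 fold change of Nrxn3 was -0.13 (edgeR adjusted p = 0.243), that of Nlgn1 -0.037 (0.644), that of Lrrtm2 -0.19 (0.216), and that of Nrxn2 turned to 0.03 (0.799). That of Nlgn3 grew with the offset from 0.11 to 0.17 (edgeR adjusted p = 0.245). All 7 markers of GABAergic interneurons were lower in Chd8+/- at P5, with summed levels of 583 to 596 CPM in Chd8+/+ and 488 to 561 CPM in Chd8+/- libraries. All 6 markers of striatal medium spiny neurons were also lower, with sums of 267 to 290.4 CPM and 198 to 242.5 CPM, and so were all 5 markers of choroid plexus, with sums of 440 to 571.5 CPM and 320.4 to 379 CPM. None of these markers was called by edgeR. In Chd8+/- replicate 1, where Nrxn3, Lrrtm2 and Nlgn1 were lowest, the interneuron sum (488 CPM) and the striatal sum (198 CPM) were lowest too, and so were the sums of astrocyte markers (834 CPM, against 942 to 985 CPM in the other 5 libraries), radial glia and progenitor markers (122 CPM, against 129 to 143.5 CPM) and oligodendrocyte precursor markers (364 CPM, against 368 to 397 CPM). The sums of the 6 cortical excitatory neuron markers overlapped, at 1172 to 1253 CPM and 1153 to 1203 CPM. The part of exon length and of these cells in the differences of Nrxn3, Lrrtm2 and Nlgn1 was not tested.

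The make-up of the families was also compared between genotypes. With 3 against 3 libraries the exact permutation test cannot go below p = 0.1, and the lowest adjusted p of the genotype comparisons was 0.267 in this exact test. At P5 the log2 ratio of Nrxn3 to Nrxn2 was -2.14 ± 0.0472 in Chd8+/+ and -2.30 ± 0.169 in Chd8+/- (SD, n = 3 each; exact permutation p = 0.1). The share of Lrrtm4 was 5.51% ± 0.240 and 6.05% ± 0.208 at P5, and that of Lrrtm2 was 26.4% ± 0.564 and 27.5% ± 0.798 at E12.5, without overlap in either case (SD, n = 3 each; exact permutation p = 0.1). At P5 the share of Lrrtm2 was 24.3% ± 1.10 in Chd8+/+ and 21.9% ± 2.07 in Chd8+/-, in the other direction (SD, n = 3 each; exact permutation p = 0.2). The share of Nlgn2 was 80.8% ± 0.347 and 80.75% ± 0.529 (SD, n = 3 each) in Chd8+/+ and Chd8+/- at P5.

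Whether the genotype difference changed from E12.5 to P5 was tested with the interaction of genotype and stage over the 12 libraries. edgeR called 0 of 9 genes and 0 of all genes (0%), and of the 7 genes to which DESeq2 gave an adjusted p it called 0, beside 0.0938% of all such genes. An unadjusted edgeR p under 0.05 was reached by 3 of 9, beside 10.02% of all genes. Lrrtm2 was higher in Chd8+/- at E12.5 and lower at P5, and its interaction was -0.43 on the log2 scale (SE 0.111, edgeR adjusted p 0.362, DESeq2 adjusted p 0.0990). Nlgn1 had the same order of signs, with an interaction of -0.25 (SE 0.0764, edgeR adjusted p 0.362, DESeq2 adjusted p 0.225). Nlgn3 had the opposite order, with an interaction of 0.27 (SE 0.107, edgeR adjusted p 0.446, DESeq2 adjusted p 0.348). For the other 6 genes the interaction lay between -0.16 and 0.06. These values rest on the same Chd8+/+ and Chd8+/- libraries as the comparisons within each stage.

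The genes that act with this family were followed as 7 lists, 54 genes in all. They are partners of neurexins in the cleft, partners of their cytoplasmic tails, regulators of neurexin splicing, scaffolds and inhibitors of neuroligins, other leucine-rich synaptic organizers, receptor phosphatases, and the Ctnna genes that host an Lrrtm gene. C1ql2, Nxph2 and Ctnna3 were below the filter on low counts at E12.5 and entered the stage comparison through their P5 level, so they are left out of its counts. From E12.5 to P5 in Chd8+/+, 43 of the other 51 rose and 7 fell in edgeR, beside 39.7% of all genes above the filter at both stages that rose and 43.7% that fell. All 14 leucine-rich organizers (Slitrk, Lrfn and Lrrc4 genes) rose, with a median log2 fold change of 1.64, and so did all 6 cytoplasmic partners, with a median of 1.36. The postsynaptic scaffold gene Dlg2 rose by 4.89 (log2 fold change, SE 0.0870), more than each of the 9 genes, whereas the scaffold gene Magi1 was the 1 of 10 in its list that fell (log2 fold change -0.66). Of the 13 cleft partners above the filter at both stages, 11 rose, and the median of the 13 was 1.94. The neurexin ligand Nxph3 rose by 4.76, and Nxph4 and the glypican Gpc4 fell by 2.13 and 2.65 on the log2 scale. Below the filter at E12.5, Nxph2 was at a mean of 0.170 CPM at E12.5 and 8.25 CPM at P5 in Chd8+/+, and C1ql2 at 0.0689 and 1.29 CPM. Of the splicing regulators, Khdrbs1 fell by 1.22 and Khdrbs3 rose by 0.45, while Khdrbs2 was at -0.16 (edgeR adjusted p 0.117). Of the phosphatases, Ptprd rose by 1.34 on the log2 scale, and Ptprs (-0.22) and Ptprf (-0.75) fell.

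The host genes of Lrrtm1 and Lrrtm2 differed in direction. Ctnna1, which holds Lrrtm2 in an intron on chromosome 18, fell by 2.14 (SE 0.0455) where Lrrtm2 rose by 2.81. Ctnna2 rose by 0.76 (SE 0.0712) around Lrrtm1. These values are log2 fold changes from E12.5 to P5 in Chd8+/+. Ctnna3, which holds Lrrtm3, was close to the detection limit, at 0.0779 to 0.190 CPM at E12.5 and 0.607 to 0.738 CPM at P5 in Chd8+/+.

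**Figure D5:**
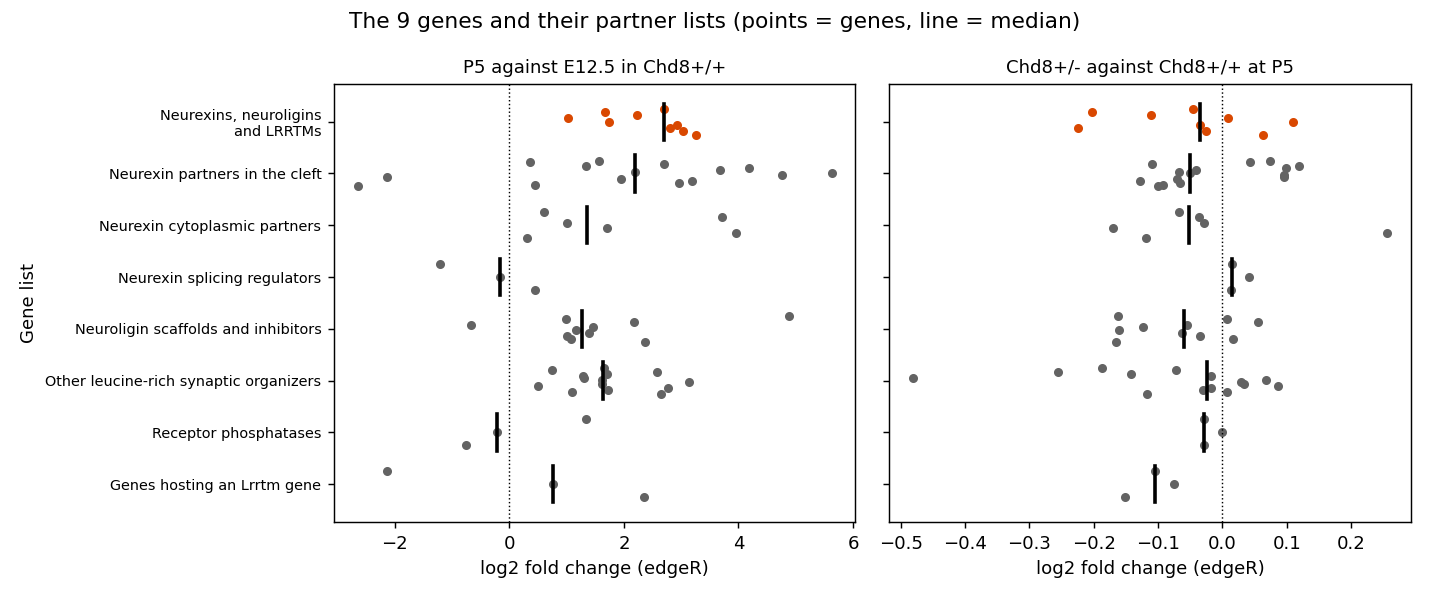
Log2 fold changes (edgeR) of the 9 genes (top row) and of the genes of 7 partner lists, with 1 point per gene and a line at each median, from E12.5 to P5 in Chd8+/+ (left) and between genotypes at P5 (right). The left panel and its medians include C1ql2, Nxph2 and Ctnna3, which were below the filter at E12.5. The medians of the 9 genes are 2.70 on the left and -0.03 on the right, and the leucine-rich organizers all lie above 0 on the left.

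Between the genotypes, edgeR called 0 of the 51 partner genes tested at E12.5 and 0 of 54 at P5. At P5, 36 of 54 were lower in Chd8+/- and 13 of those had an unadjusted p under 0.05, against 1 that was higher at that p. The 9.77% given above is the share of all genes lower at that p. With the length offset, 30 were lower and 7 of those had an unadjusted p under 0.05, beside 6.85% of all genes in that fit. Of the 51 partner genes with a DESeq2 adjusted p at P5, DESeq2 called 3 as lower, beside 3.57% of all such genes, and 1 as higher, beside 1.71%. Their log2 fold changes and SE are given from edgeR. Slitrk3, an organizer of inhibitory synapses, was lower (log2 fold change -0.26, SE 0.0488, DESeq2 adjusted p 0.00246), at 43.1 to 46.8 CPM in Chd8+/- and 51.9 to 56.5 CPM in Chd8+/+ libraries. Gphn, which encodes the inhibitory scaffold gephyrin, was at 82.75 to 86.2 CPM in Chd8+/- and 91.3 to 95.5 CPM in Chd8+/+ libraries (log2 fold change -0.16, SE 0.0338, DESeq2 adjusted p 0.0200). Dlg2 was at 264 CPM ± 11.5 in Chd8+/- and 296 CPM ± 8.55 in Chd8+/+ libraries (SD), without overlap (log2 fold change -0.16, SE 0.0425, DESeq2 adjusted p 0.0110). Lin7b, an adaptor that joins the neurexin tail complex, was the 1 that was higher, at 29.9 to 33.4 CPM in Chd8+/- and 25.65 to 26.5 CPM in Chd8+/+ libraries (log2 fold change 0.26, SE 0.0562, DESeq2 adjusted p 0.0108). At E12.5, of the 48 partner genes with a DESeq2 adjusted p, 0 were called, and 1 higher and 1 lower partner gene had an unadjusted edgeR p under 0.05.

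The genes whose profile over the 12 libraries came closest to each of the 9 were found by the root mean square (RMS) difference of centred log2 CPM among 19676 genes. Nearest to Nrxn2 was Rbfox3 (RMS difference 0.0416), the gene for the neuronal nuclear marker NeuN, followed by Scamp5 and Prkca. Nearest to Nrxn3 were Syn3 (0.0651), a synapsin gene, Ppargc1a and Abat. For Nlgn1 they were Ppp3ca (0.0438), which encodes a calcineurin subunit, Cpe and Pkia, for Nlgn2 Dixdc1 (0.0405), Osbpl3 and Fbxw4, and for Nlgn3 Mast1 (0.0850) and Cyb561. For Lrrtm1 they were Reep5 (0.0579), Epb41l1 and Cd200, for Lrrtm2 Gpr155 (0.0834), Nav3 and St8sia3, for Lrrtm3 Mmd2 (0.0769), Ndrg2 and Syt5, and for Lrrtm4 Prrt3 (0.0826), Ppp1r16b and A330102I10Rik. None of the 9 genes was among the 3 nearest of another. These likenesses are set mostly by the stage difference that the 12 libraries share.

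Each of the 4 groups had 1 library with over 100 CPM of Xist and 2 without, so that the number of such libraries was the same in both genotypes. At P5 these were replicate 1 of Chd8+/+ (1006 CPM) and replicate 1 of Chd8+/- (834 CPM). That Chd8+/- library also had the lowest Nrxn3, Lrrtm2 and Nlgn1 of the P5 libraries. With a term for the libraries with high Xist, added after the data were seen, the P5 log2 fold change was -0.21 for Nrxn3 (edgeR adjusted p 0.156) and -0.23 for Lrrtm2 (0.172).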

How the data were processed

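The deposited values are raw read counts per gene and sequencing run, without normalization, which the authors made by trimming with Trim Galore 0.4.1, alignment to GRCm38.p4 with TopHat2 2.1.0 and counting with featureCounts 1.5.0 on Ensembl 82 genes. The exon lengths deposited with the counts were used for CPM per kb. The header of the P5 table records paired counting with no strand option. The E12.5 command is not given in the sources used here. The 2 runs of each library were compared over genes and summed, since their chi-squared divided by its degrees of freedom was 1.18 to 1.54, against 7.09 to 49.7 between libraries of a group. Columns named CTRL were matched to Chd8+/+ libraries by their titles. The labels do not say that libraries came from separate animals, and p-values measure the spread between these libraries.

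Genotypes were compared within each stage, and stages and the interaction in 1 model of 12 libraries, with edgeR 4.0.16 under R 4.3.3 (TMM, filterByExpr, quasi-likelihood test, Benjamini-Hochberg adjustment, threshold 0.05). The biological coefficient of variation was 9.18% at E12.5 and 7.42% at P5. The study's own tool, DESeq2, was run as an alternative (1.42.0). Other alternatives were RLE scaling, no filter beyond 1 count, a loess offset for exon length (span 0.5), a threshold of 0.1, the replicate block, each library left out, and, added after seeing the data, a term for high Xist and DESeq2 on the genes that edgeR tested or with each P5 library left out. Likeness used log2 CPM with a prior count of 2. The scripts were tested on simulated data, which held known changes but no trend with exon length. Genes named are the 9 members, Chd8, the genes of the partner and marker lists, and the 3 nearest genes of each member, of which 1 is not reported here. The members and lists were chosen with earlier results of these data known. Start windows came from RefSeq (GRCm38.p6) and matched 6 of the 9 genes, with none shown for chromosome 18.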

Additional observations from a re-analysis of the deposited data

How the results depend on the processing

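The rise of all 9 genes from E12.5 to P5 kept its direction and its call in both genotypes under every alternative and with each library left out. Under the length offset, which moved the median of all genes to -0.25 in Chd8+/+ and -0.21 in Chd8+/-, the rises were still between 0.77 and 3.06 on the log2 scale. No gene was called at E12.5 or in the interaction under any alternative. At P5 the call depended on the tool and, within edgeR, on the filter on low counts. With the filter, edgeR called 0 of 9 genes, also with each library left out. DESeq2 called 2, also on the genes that edgeR tested, and so did edgeR on all genes with at least 1 count. DESeq2 called between 0 and 3 with each P5 library left out, while its calls over all genes ranged from 0.394% to 6.39%, against 5.28% with all libraries. Both alternatives of DESeq2 were chosen after seeing the data. Of the partner genes at P5, 4 were called by DESeq2 and 0 by edgeR. The cause of these differences was not tested.

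Small differences changed sign. With the length offset, Nrxn2 at P5 turned to 0.031 and the interaction of Lrrtm4 to 0.049, and in the model of all 12 libraries Nlgn2 at P5 turned to -0.0067. With each library left out, the log2 fold change at E12.5 ranged from -0.17 to 0.030 for Nrxn3, from -0.0024 to 0.31 for Lrrtm3 and from -0.067 to 0.15 for Lrrtm4. At P5 it ranged from -0.016 to 0.045 for Nlgn2 and from -0.054 to 0.0089 for Lrrtm1 in edgeR, and from -0.017 to 0.040 and from -0.056 to 0.0029 in DESeq2. The interaction ranged from -0.019 to 0.18 for Nrxn2 and from -0.089 to 0.14 for Lrrtm4. The genotype difference in share ranged from -0.67 to 0.62 percentage points for Nlgn2, -2.6 to 0.020 for Lrrtm1, -1.1 to 1.8 for Lrrtm3 and -0.51 to 0.043 for Lrrtm4 at E12.5, and from -0.31 to 0.20 for Nlgn2 at P5, where shares of counts in place of CPM per kb gave 0.18.

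Deviations of same-numbered libraries correlated at -0.40, -0.18 and -0.25 at E12.5 and at 0.32, 0.12 and 0.029 at P5. Those of other-numbered libraries correlated between -0.15 and 0.35 at E12.5 and between -0.29 and 0.22 at P5. Same-numbered libraries were thus not more alike at E12.5, while at P5 these correlations do not settle whether the numbers pair the libraries. The replicate block was run only in edgeR with its filter. There, the lowest edgeR adjusted p of the 9 genes at P5 was 0.217 (Nrxn3, log2 fold change -0.21). No call of that edgeR fit among the 9 genes changed. The calls by DESeq2 and by edgeR without the filter were not refitted with the block. With 3 libraries per group, standard errors at P5 were 0.0351 to 0.0679 for the 9 genes, which limits the size of difference that could pass.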
